A study of Mus musculus with 4 samples.

Results

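The insulin-like growth factor (IGF) axis was described in adult mouse testis through 10 listed genes, namely Igf1, Igf2, Igf1r, Igf2r and the binding protein genes Igfbp2, Igfbp3, Igfbp4, Igfbp5, Igfbp6 and Igfbp7. They were found by gene symbol in a table of read counts for 25265 genes, and 9 of the 10 had a row. Igf2 was not analysed here. All 9 passed the filter on low counts and were among the 21132 genes tested. The list was chosen by results of the genotype comparison in these same libraries, in which the fold change and adjusted p of Igfbp3 stood out. The differences of the 9 genes between the groups are therefore a description and support nothing further. All samples were testes of C57BL/6 mice at postnatal day 56, and total RNA was depleted of ribosomal RNA before sequencing, per the labels' protocols. One group is labelled control and the other Ythdf2-vKO, with 2 libraries each. The series title describes the mutation as germ cell-specific, while the driver of the deletion, the deleted segment, the controls' alleles and whether the libraries came from separate animals are not given in the sources used here. P-values therefore measure only the spread between these libraries, which may be technical.

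IGF1 and IGF2 are secreted peptides related to insulin. They act mainly through IGF1R, a receptor tyrosine kinase that signals through PI3K and AKT. IGF2R, also known as the cation-independent mannose 6-phosphate receptor, takes up IGF2 for breakdown in lysosomes. The IGF-binding proteins (IGFBPs) hold the ligands outside the cell, lengthen their life in the circulation and set how much reaches the receptor, and several also bind matrix or the cell surface. In the testis, receptors of the insulin family are known for their part in Sertoli cell proliferation. YTHDF2 is a cytoplasmic reader of N6-methyladenosine (m6A) in RNA.

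The libraries held between 24862518 and 29561182 gene counts. Counts are also given below as CPM, the usual depth-scaled unit, after TMM scaling, which corrects for library composition. Ythdf2, the targeted gene, had 1193 and 1604 counts in control against 1774 and 1807 in the vKO-labelled libraries. In CPM it was higher in the latter without overlap, at 51 and 53.5 against 66.3 and 67 (log2 fold change 0.35, SE 0.13, adjusted p 0.238 by edgeR). No loss of Ythdf2 RNA was thus seen under the label, and directions are stated for the libraries as labelled. The counts of whole genes do not show whether a segment was missing. Testis identity was plain in every library, with 8520 to 11040 summed CPM of 8 elongating spermatid genes. The RNA is from whole tissue, in which fewer cells of a type and less RNA per cell cannot be told apart.

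Coordinates are from GENCODE M21 (build GRCm38), and the build used by the authors is not given in the sources used here. Igfbp3 (ENSMUSG00000020427) is a minus-strand gene of chromosome 11 (7206086 to 7213923). Its neighbour Igfbp1, which was not analysed here, lies 3539 bases away on the other strand, and the 3′ ends of both genes face each other. Igfbp2 (ENSMUSG00000039323, chromosome 1, 72824503 to 72852474, plus strand) and Igfbp5 (ENSMUSG00000026185, 72857932 to 72874884, minus strand) form a second pair of this kind, 5457 bases apart. Igfbp4 (ENSMUSG00000017493) lies on the plus strand of chromosome 11 from 99041244 to 99054392, Igfbp6 (ENSMUSG00000023046) on the plus strand of chromosome 15 from 102144362 to 102149511, and Igfbp7 (ENSMUSG00000036256) on chromosome 5 (minus strand) from 77349240 to 77408041. Igf1 (ENSMUSG00000020053) lies on the plus strand of chromosome 10 from 87858265 to 87937042, Igf1r (ENSMUSG00000005533) on the plus strand of chromosome 7 from 67952827 to 68233668, and Igf2r (ENSMUSG00000023830) on chromosome 17 (minus strand) from 12682406 to 12769664.

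The bases upstream of Igfbp3 are shown because it is the member whose RNA level differed most between the groups. The sequence is from RefSeq (GRCm38.p6, minus strand, chr11:7213924-7214173) and runs 5′ to 3′ over the 250 bases before the annotated start. All 10 listed genes matched a RefSeq promoter, with 14 windows in total. Capitals mark TATATA, which was found 30 bases before the start.
Igfbp3 promoter: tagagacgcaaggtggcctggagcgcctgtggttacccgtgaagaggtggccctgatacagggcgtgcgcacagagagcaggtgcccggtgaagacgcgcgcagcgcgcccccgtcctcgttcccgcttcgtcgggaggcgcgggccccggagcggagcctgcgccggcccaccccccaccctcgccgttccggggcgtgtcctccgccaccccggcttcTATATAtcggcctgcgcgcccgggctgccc

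On both strands, TATATA was found in 1 of the 14 member windows, that of Igfbp3, and in 5.25% of 32851 RefSeq windows of the same length. TATAAA was found in 2 windows, of Igfbp4 and Igfbp6, and in 12.4% of all. GGGCGG, the core of GC boxes, was found in 6 windows of Igf1r, Igf2, Igf2r, Igfbp2 and Igfbp7 and in 32.7% of all, and CCAAT in 3 windows of Igf1, Igf2 and Igfbp6 and in 33.8% of all. These matches describe letters in the windows, not sites in use.

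The letters GGACT, a form of the consensus around m6A, were counted on the sense strand of the longest coding transcript of each gene. Igfbp3 had 1 match in 2421 bases, in exon 5 and within the 3′ UTR (chromosome 11, 7206770 to 7206774, minus strand). It is shown with 8 bases on each side because YTHDF2 reads m6A, and the capitals mark the match.
Igfbp3 GGACT: gcagcatcGGACTccacgttc

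That is 0.413 matches per kb, against a median of 1.05 per kb over 15845 coding transcripts of tested genes, of which 91% had at least 1. Igfbp2 had none. The matches per kb were 0.284 in Igf1, 0.833 in Igfbp7, 1.17 in Igfbp5, 1.23 in Igf1r, 1.35 in Igf2r, 1.57 in Igfbp4 and 2.7 in Igfbp6. Igfbp3 was below the lower quartile of 0.627 per kb, and whether any of these letters carries the mark was not measured.

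Igfbp3 encodes the main carrier of IGFs in blood. It had 22 and 38 counts in the control libraries and 116 and 141 counts in the vKO-labelled libraries. Both vKO-labelled libraries lay above both controls, with no overlap. On the CPM scale the mean was 1.10 ± 0.231 in control against 4.78 ± 0.632 in the vKO-labelled libraries (SD, n = 2 each), a ratio of 4.33. The fitted log2 fold change was 2.1 (SE 0.31). The adjusted p over all genes, which helped to choose the gene, was 0.0171 (edgeR quasi-likelihood F test, Benjamini-Hochberg adjustment). The authors' deposited table gave 2.1 (SE 0.41) on the log2 scale and an adjusted p of 0.000168. The DESeq2 Wald test run here on the same counts gave the same values, so it is no separate result. Of all genes tested, 45 had a higher fitted log2 fold change. The 22 and 38 control counts make the base of this ratio imprecise, and leaving out each library in turn moved the log2 fold change between 1.90 and 2.34.

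**Figure D1:**
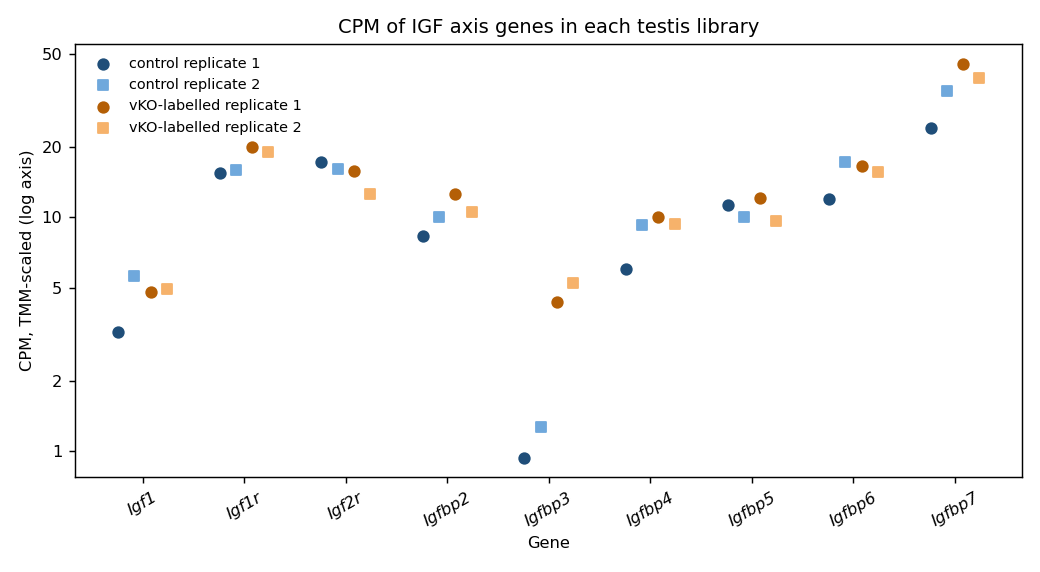
CPM (TMM-scaled, log axis) of the 9 genes in each of the 4 libraries, with circles for replicate 1 and squares for replicate 2. Igfbp3 sits at 0.941 and 1.27 CPM in control and at 4.33 and 5.23 CPM in the vKO-labelled libraries, the widest gap between the groups among these genes.

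The share of Igfbp3 among the counts of Igfbp2 to Igfbp7 does not depend on scaling between libraries. It was 1.5% (exact binomial 95% interval 0.943 to 2.26) and 1.53% (1.09 to 2.1) in the control libraries. In the vKO-labelled libraries it was 4.28% (3.55 to 5.12) and 5.83% (4.93 to 6.84). These intervals cover counting error only. The control shares lay close together and below both shares of the vKO-labelled libraries. The summed level of the other 5 binding protein genes was 61.8 and 81.5 CPM in control against 96.8 and 84.5 CPM in the vKO-labelled libraries. Igfbp3 was a small part of the binding protein counts in every library, and Igfbp7 the largest, with 38.5% and 41.9% in control and 44.9% and 43.8% in the vKO-labelled libraries.

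**Figure D2:**
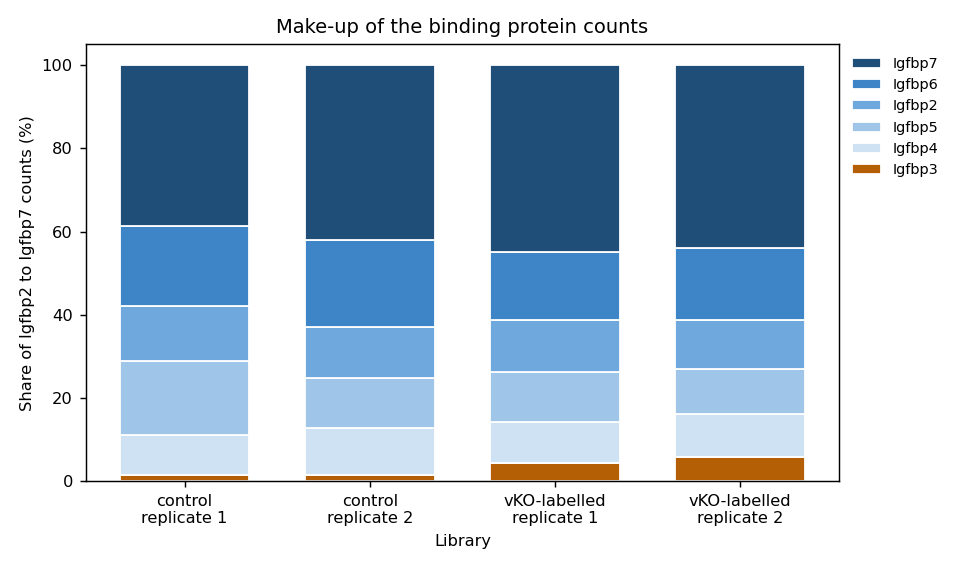
Stacked bars give the share of each gene in the summed counts of Igfbp2 to Igfbp7 (percent) in each library. Igfbp3, at the foot of each bar, takes 1.5% and 1.53% in control and 4.28% and 5.83% in the vKO-labelled libraries.

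Igfbp7 encodes a secreted protein of vessel walls and matrix that binds IGFs weakly. Its CPM were 24.2 and 34.7 in control against 45.4 and 39.3 in the vKO-labelled libraries. The groups did not overlap, but the control libraries lay further apart than the vKO-labelled libraries. The log2 fold change was 0.52 (SE 0.17) at an adjusted p of 0.209 (edgeR), so it was not called. Without control replicate 2 the log2 fold change was 0.81 with an adjusted p of 0.000174, and without control replicate 1 it was 0.28 with an adjusted p of 0.319, in fits with 1 control library. With an offset for GC content it was 0.32. Igfbp7 overlaps the gene Polr2b on the opposite strand by 85 bases of exon, and the strand setting of the counting is not given in the sources used here.

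Igfbp2 encodes a binding protein that can attach to integrins. Its CPM were 8.30 and 10.1 in control against 12.6 and 10.6 in the vKO-labelled libraries. The groups did not overlap, though the nearest libraries of each lay close. The log2 fold change was 0.34 (SE 0.19), with 0.08 under an offset for GC content, 0.20 without control replicate 1 and 0.20 without vKO-labelled replicate 1. Igfbp5, its neighbour on chromosome 1 and a binding protein of connective tissue and bone, had 11.25 and 10.04 CPM in control against 12.1 and 9.64 CPM in the vKO-labelled libraries. Those groups overlapped fully. Its log2 fold change was 0.03 (SE 0.19), and its sign changed without control replicate 2 (-0.05) and without vKO-labelled replicate 1 (-0.14).

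Igfbp4, whose product is cut by the protease PAPP-A to free bound IGF, had 6.03 and 9.31 CPM in control against 10.01 and 9.34 CPM in the vKO-labelled libraries. The second control library lay just under the lower of the vKO-labelled libraries. The log2 fold change was 0.33 (SE 0.22), with 0.05 without control replicate 1, 0.68 without control replicate 2 and 0.21 under an offset for GC content. Igfbp6, whose product prefers IGF2 over IGF1, had 12.02 and 17.3 CPM in control against 16.7 and 15.6 CPM in the vKO-labelled libraries. Both of the latter lay between the control libraries. Its log2 fold change of 0.13 (SE 0.19) turned to -0.11 without control replicate 1 and to -0.11 with an offset for GC content.

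Among ligand and receptors, Igf1 had 76 and 168 counts in control against 129 and 134 counts in the vKO-labelled libraries. In CPM these were 3.25 and 5.60 against 4.82 and 4.97, so that the vKO-labelled libraries lay within the range of the controls. Its log2 fold change was 0.13 (SE 0.27), with a sign that turned without control replicate 1 (-0.20). It was 0.59 without control replicate 2 and 0.25 under an offset for GC content. Igf1r, the signalling receptor, had 15.5 and 15.9 CPM in control against 20.1 and 19.1 CPM in the vKO-labelled libraries. Both pairs were tight and did not overlap, with a log2 fold change of 0.32 (SE 0.15) at an adjusted p of 0.373 (edgeR). Igf2r was the member with a negative value: 17.3 and 16.0 CPM in control against 15.8 and 12.6 CPM, a log2 fold change of -0.23 (SE 0.17) that was -0.40 without vKO-labelled replicate 1 and -0.07 without replicate 2. The upper library labelled vKO nearly reached the lower control.

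Among the 9 genes edgeR called 1 (adjusted p under 0.05), against 0.393% of all genes tested in either direction and 0.279% with the vKO-labelled libraries higher. Those libraries lay wholly above control for 5 of the 9 and wholly below for 1, against 22.7% and 22.6% of all genes. At an unadjusted p under 0.05 there were 2 of the 9, Igfbp3 and Igfbp7, against 14.1% of all genes. These counts come from the contrast used to choose the list, and nothing is read from them. The median log2 fold change was 0.23 over the 8 genes other than Igfbp3, and 0.003 over all genes. Igfbp3 stood 1.57 above the next highest member, Igfbp7, on the log2 scale.

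**Figure D3:**
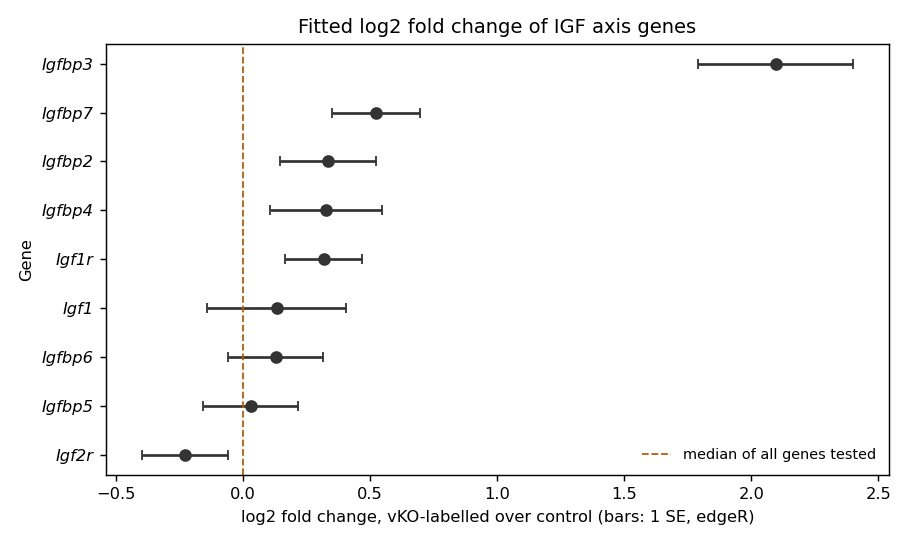
Fitted log2 fold change of each gene, vKO-labelled libraries over control, with bars of 1 SE from edgeR (2 libraries a group); the dashed line is the median of all genes tested. Igfbp3 lies at 2.1, and the other 8 genes lie between -0.23 and 0.52.

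Levels of different genes were compared as CPM per kb of exon, since longer transcripts collect more reads. This length was the union of annotated exons, for Igfbp3 3130 bases against 2421 in its longest coding transcript. Close places in the order depend on the length used. In control, Igfbp7 was highest at 24.3 ± 6.15 CPM per kb (SD, n = 2), followed by Igfbp6 at 13.2 ± 3.39 and Igfbp2 at 4.97 ± 0.679. None of these neighbours in the order overlapped. Igf2r (1.79 ± 0.0942), Igfbp5 (1.77 ± 0.143) and Igfbp4 (1.74 ± 0.524) came next and overlapped one another. Igf1r followed at 0.936 ± 0.0192 CPM per kb. Igf1 (0.447 ± 0.168) and Igfbp3 (0.353 ± 0.0737) were lowest and their ranges overlapped, although Igfbp3 was below Igf1 within each control library (0.301 against 0.328 and 0.405 against 0.566).

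In the vKO-labelled libraries the first 3 places were the same, with 35.1 ± 3.57 CPM per kb for Igfbp7, 14.5 ± 0.695 for Igfbp6 and 6.29 ± 0.775 for Igfbp2. Igfbp3, at 1.53 ± 0.202 CPM per kb, overlapped Igf2r (1.53 ± 0.246) and Igfbp5 (1.81 ± 0.29) and lay above Igf1r (1.17 ± 0.0425). Igf1 was then lowest at 0.494 ± 0.0106 CPM per kb. RNA of the ligand Igf1 was thus below that of its receptor Igf1r per kb of exon in all 4 libraries.

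**Figure D4:**
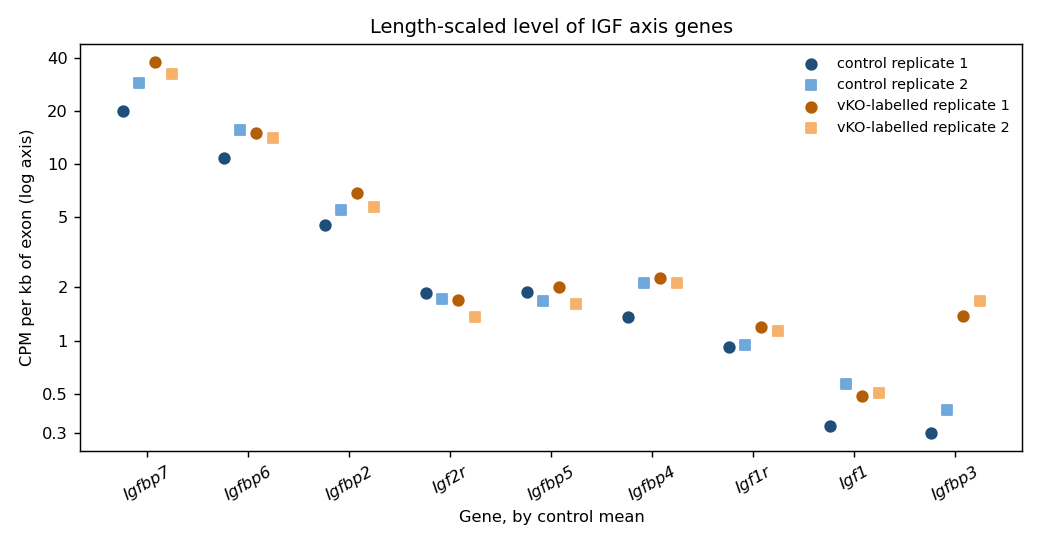
CPM per kb of exon (log axis) of each gene in the 4 libraries, ordered by the control mean. Igfbp7, Igfbp6 and Igfbp2 lead in both groups, and Igfbp3 lies at 0.301 and 0.405 CPM per kb in control and at 1.38 and 1.67 CPM per kb in the vKO-labelled libraries.

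Control replicate 1 stood apart for much of the axis. It held the lowest CPM of the 4 libraries for 7 of the 9 genes, all but Igf2r and Igfbp5, against 26.7% of all genes tested. For the 5 genes with vKO-labelled libraries wholly above control, the lowest value had to fall in a control library. Control replicate 1 was below control replicate 2 for the same 7 genes, against 50.5% of all genes tested. The controls were close for Igf1r, at 15.5 and 15.9 CPM. Control replicate 1 was also low on 3 lists of interstitial and peritubular marker genes, though not on that of endothelial genes. Its deviation from the 4-library mean, as a list median of log2 CPM, was -0.63 for 8 macrophage genes, -0.56 for 8 fibroblast-like genes and -0.37 for 7 peritubular myoid genes. Control replicate 2 stood at 0.26, 0.40 and 0.33 on these lists. For the 7 endothelial genes the control libraries stood at -0.01 and -0.08, and for the 9 Leydig cell genes at -0.28 and -0.16. For the 8 elongating spermatid genes control replicate 1 was the highest library, at 0.27 against 0.021 in control replicate 2. The vKO-labelled libraries stood at -0.155 and -0.116 on that list. On the same scale Igf1 stood at -0.49 and 0.29, Igfbp4 at -0.50 and 0.13, and Igfbp6 at -0.34 and 0.19 in the control libraries. Their part in the values of the IGF genes was not tested.

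Summed marker levels of several cell types also moved with the groups. The 13 Sertoli cell genes were all positive, with 1218 and 1300 summed CPM in control and 1823 and 1597 in the vKO-labelled libraries, and 1 of them, the Sertoli transcription factor gene Wt1, was called (31.3 and 32.8 CPM against 54.2 and 50.7). Over all genes tested, 50.3% were positive and 0.393% were called. Of the 13, 9 had an unadjusted p under 0.05, against 14.1% of all genes, and 12 had vKO-labelled libraries wholly above control, against 22.7%. Such counts were not particular to Sertoli genes. Of 9 Leydig cell genes, 8 were positive, 5 had an unadjusted p under 0.05 (edgeR) and 6 lay wholly above control. The 9 spermatogonial genes were all positive, with 3 and 6 by these same measures. Of 7 myoid genes, 2 were positive, with 0 by both measures. The 9 Leydig cell genes summed to 326.6 and 391.1 CPM in control and to 519.3 and 395.2 CPM in the vKO-labelled libraries. The 7 endothelial genes tested summed to 37.1 and 26.1 against 44.6 and 38.6 CPM, 8 fibroblast-like genes to 40 and 77.7 against 80.4 and 66.9, 8 macrophage genes to 57.1 and 93.7 against 88.7 and 72.6, 7 myoid genes to 232 and 264 against 257 and 208, and 4 erythrocyte genes to 26.7 and 32.3 against 41.95 and 38.96. Ratios of these sums, vKO-labelled libraries over control, were 1.36 for Sertoli, 1.27 for Leydig, 1.32 for endothelial, 1.25 for fibroblast-like, 1.07 for macrophage, 0.937 for myoid and 1.37 for erythrocyte genes. Abundant genes lead such sums, as Actg2 did for myoid genes at 180 and 176 CPM in control. List medians of the log2 fold change were 0.483 for Sertoli, 0.392 for Leydig and 0.371 for endothelial genes. They were 0.235 for fibroblast-like, 0.067 for macrophage, -0.054 for myoid and 0.757 for erythrocyte genes. Some single markers moved further than their lists, up or down. Log2 fold changes were 1.54 for the macrophage gene Cd163, 1.31 for the Sertoli gene Amh and 1.055 for the fibroblast-like gene Pdgfra. Lum, of the same fibroblast-like list, stood at -0.65, and edgeR called none of them. For Igfbp3, a single gene and not a sum, the ratio of mean CPM was 4.33, and whether cell make-up had a part in it was not tested.

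Among germ cells, the sums of 9 spermatogonial genes were 136 and 134 against 170 and 150 CPM (ratio 1.19). Ratios for 8 spermatocyte, 7 round spermatid and 8 elongating spermatid genes were 0.901, 0.947 and 0.857. Of the 8 elongating spermatid genes, 1 was positive, and 4 had a negative value at an unadjusted p under 0.05 (edgeR). The vKO-labelled libraries lay wholly below control for 6 of these 8, against 22.6% of all genes tested. Of the epididymis and efferent duct list, 2 of 8 genes were tested, with a ratio of 0.89. No tested marker was at 0 in any library, and the endothelial marker Emcn had 3 and 7 against 10 and 7 counts and was not tested. Whether any of these cell types had a part in the level of Igfbp3 was not tested.

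**Figure D5:**
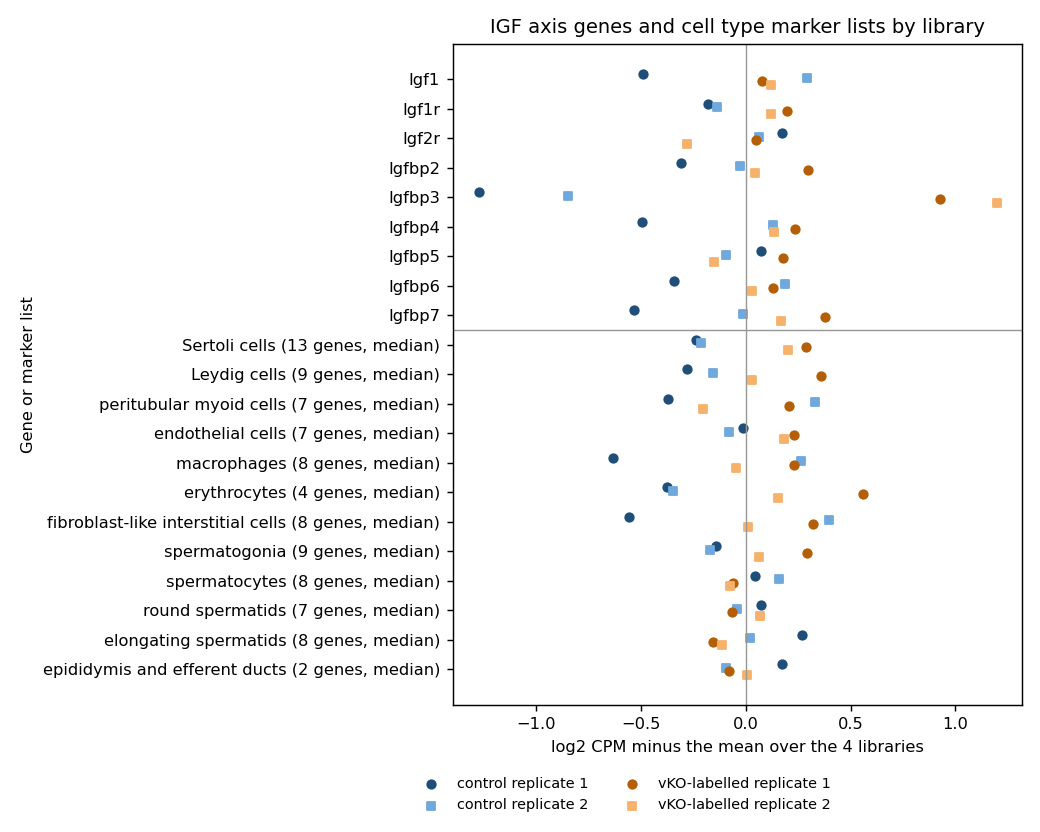
For each gene (upper part) and each marker list (lower part, median over its tested genes), the log2 CPM of every library minus the mean over the 4 libraries. Igfbp3 runs from -1.28 and -0.85 in control to 0.93 and 1.20, while control replicate 1 is low for Igf1, Igfbp4, Igfbp6, Igfbp7 and the macrophage and fibroblast-like lists.

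The wider pathway was read from 8 lists of 77 genes in all, of which 61 were tested. EdgeR called none of them after Benjamini-Hochberg adjustment, against 0.393% of all genes tested. At an unadjusted p under 0.05 there were 14, with 8 positive and 6 negative, against 14.1% of all genes. A DESeq2 Wald test called 1, Htra1, and over all 16448 genes with an adjusted p it called 137 higher and 80 lower. The median log2 fold change of the 61 was 0.08, and 36 were positive, against 50.3% of all genes tested.

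HTRA1 is a secreted serine protease with an IGFBP-like domain. Htra1 had 102 and 195 counts in control against 335 and 262 counts in the vKO-labelled libraries. The groups did not overlap, and each had a wide spread. In CPM, 4.36 and 6.50 stood against 12.5 and 9.71, a log2 fold change of 1.02 (SE 0.23) at an adjusted p of 0.0871 (edgeR). With an offset for GC content it was 0.88 at an adjusted p of 0.126 (edgeR). The authors' deposited table gave a log2 fold change of 1.02 and an adjusted p of 0.0276, the same adjusted p as the DESeq2 Wald test run here. It also passed without control replicate 1, where its log2 fold change was 0.77 (adjusted p 0.0263), without control replicate 2 (1.35, adjusted p 3.41e-05) and without vKO-labelled replicate 2 (1.19, adjusted p 0.032), in fits with 1 library in a group. Without vKO-labelled replicate 1 it did not pass (0.83, adjusted p 0.502). The other protease named by level, Pappa, which encodes PAPP-A, had 25.9 and 18.6 CPM in control against 25.7 and 19 CPM in the vKO-labelled libraries, so the groups overlapped fully.

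Other extracellular members of the pathway were not called. Igfals, which encodes the acid-labile subunit that joins IGFBP3 and IGF in blood, had 4.15 and 2.47 against 3.06 and 4.30 CPM. Ctgf, a matrix protein gene with an IGFBP-like domain, had 12.8 and 18.6 against 17.7 and 13.9 CPM, and Htra3, a protease gene related to Htra1, had 10.9 and 12.4 against 11.9 and 11.3 CPM. Among relatives of insulin, Insl3, the Leydig cell hormone gene, had 65.6 and 70.8 CPM in control against 101 and 82.1 CPM in the vKO-labelled libraries (log2 fold change 0.43, SE 0.14, adjusted p 0.196 by edgeR). It passed without control replicate 2, at a log2 fold change of 0.48 and an adjusted p of 0.0183, and was 0.15 under an offset for GC content. Insl6, which is expressed in germ cells, had a negative value, with 122 and 128 against 98 and 106 CPM (log2 fold change -0.29, SE 0.12, adjusted p 0.304 by edgeR).

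In the cell, Insr, the insulin receptor gene, had 17.6 and 15.1 against 12.9 and 12.4 CPM, and the adaptor gene Grb10 had 27.7 and 29.3 against 22 and 24.5 CPM. Both had negative log2 fold changes (-0.37 and -0.30) that did not pass. Shc1, another adaptor gene, had 14.2 and 15.3 against 18 and 15.5 CPM. Of the most abundant kinase genes of the PI3K list, Mtor had 289 and 203 against 254 and 207 CPM, with overlap, and Pdpk1 had 259 and 247 against 232 and 207 CPM, without overlap. Neither passed. Of the 22 genes of that list, 4 had an unadjusted p under 0.05 with a positive value and 2 with a negative one, against 14.1% of all genes in either direction. In the growth hormone route, which drives Igf1 in liver, Jak2 had 5.90 and 7.41 against 8.89 and 8.64 CPM and Socs2 had 3.94 and 6.44 against 4.74 and 5.56 CPM.

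Of 5 reported partners of IGFBP3, 4 had positive values, against 50.3% of all genes tested, and none passed. Rxra, a nuclear receptor gene, had 43.6 and 36.7 against 55.9 and 48.5 CPM (log2 fold change 0.38, SE 0.14), was 0.23 under an offset for GC content, and passed without control replicate 1 at 0.50 and an adjusted p of 0.0205. Tmem219, which encodes a cell-surface IGFBP3 receptor, had 32.3 and 34.2 against 24.8 and 26.5 CPM (log2 fold change -0.37, SE 0.14). Nr4a1, a nuclear receptor gene of the early response, had 46.9 and 33.0 against 45.1 and 39.1 CPM. Near the imprinted genes, H19, the RNA transcribed next to Igf2, had 56 and 35 counts against 30 and 45 counts. Mas1, near Igf2r, had 49 and 41 against 34.6 and 38 CPM, with groups that did not overlap.

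To name genes with a similar pattern, the log2 CPM of each gene in the 4 libraries, as a deviation from its own mean, was set against that of Igfbp3 by Euclidean distance over 17826 other genes of at least 1 mean CPM. The nearest was Lrg1, a secreted leucine-rich glycoprotein gene, with 2.91 and 4.37 CPM in control against 17.1 and 14.5 CPM in the vKO-labelled libraries (distance 0.38). Next came Tnfrsf12a, the gene of a TWEAK receptor, with 0.599 and 1.07 against 4.03 and 4.15 CPM (0.399), and the formin gene Inf2, with 1.16 and 2.13 against 5.30 and 5.93 CPM (0.437). Col6a6, a collagen VI chain gene, had 1.33 and 1.17 against 4.26 and 5.67 CPM (0.465), and Kcnh3, a potassium channel gene, had 0.471 and 0.834 against 3.51 and 2.89 CPM (0.525). The nearest of the other IGF genes was Igfbp7, at a distance of 1.61 and rank 867. The distance covers 4 libraries in 2 groups, so it is small for any gene with a difference between the groups of about the same size.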

How the data were processed

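RNA-seq of whole testis gave 1 table. Per the labels and the submitters' processing notes, HISAT2 2.1.0 and HTSeq 0.6.1p1 were used. The table holds raw counts per gene and library as deposited. Beside them stand columns that the authors computed: per the file headers, a mean normalized count (a signal), a log2 fold change, its standard error and test statistic (scores here), a p-value and an adjusted p-value, in the column names of DESeq2. The first header name holds a tab, so columns were taken by position in the rows.

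Counts were fitted with edgeR 4.0.16 (limma 3.58.1, R 4.3.3) over all 21132 genes kept by filterByExpr, with TMM scaling, a robust quasi-likelihood fit of genotype, a two-sided F test, a prior count of 0.125 and Benjamini-Hochberg adjustment. Calls required an adjusted p under 0.05. The SE is the absolute log2 fold change over the square root of F. The procedure was run on simulated counts with independent libraries and the same relative spread for every gene, a simpler case than these data. That run checks the code, not how the fit does on these libraries. A single-gene exact permutation test of 2 libraries against 2 cannot go below p = 0.333. Replicates differed beyond sampling noise (chi-square per degree of freedom 17.82 in control and 7.311 in the vKO-labelled libraries). Exon length is the union of GENCODE M21 exons, and GC content is that of the longest coding transcript. List medians by library used log2(CPM + 0.125). Promoter sequences are from RefSeq.

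The genes, lists and tests were chosen with earlier results of these data known. Named were all members, Ythdf2, called genes of the pathway lists and the 2 most abundant tested genes of each such list. The 5 nearest profiles to Igfbp3 were also named. Wt1, Igfals, Insr, Tmem219, Emcn, Actg2, Cd163, Amh, Pdgfra and Lum were added after their values were seen. Alternatives covered scaling, filters, robust fitting, DESeq2 1.42.0, a prior count of 2, a GC offset, the replicate block and leaving out each library.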

Additional observations from a re-analysis of the deposited data

How the results depend on the processing

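The log2 fold change of Igfbp3 was 1.90 to 2.34 over the 14 alternatives. It was called in each alternative that kept all 4 libraries. The adjusted p there ran from 6.73e-05 with the replicate block to 0.0218 without robust estimation (both edgeR). Igfbp3 was picked from this same contrast, and the alternatives refit the same libraries, so they add no support for the difference. The mean share of Igfbp3 in binding protein counts without Igfbp7 in the denominator was 2.54% in control and 9.08% in the vKO-labelled libraries, higher by construction.

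Calls over all genes were 59 higher and 24 lower. They were 181 and 37 with library totals alone, where the all-gene median was 0.0674 on the log2 scale, 137 and 80 with DESeq2, 73 and 56 with the GC offset and 50 and 15 without robust estimation, or 71.1% higher in the main fit against 83%, 63.1%, 56.6% and 76.9%. Leaving out 1 library gave 30 to 1048 higher and 5 to 523 lower, with the lone sample assumed to vary like the other group. Pathway calls were 1 with library totals alone and with DESeq2 and 0 to 6 when a library was left out.

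The labels do not say what the replicate numbers mark, and the correlation of deviations between libraries of 1 number was 0.0932 over 2 pairs, so they were not taken as pairs. With the replicate block there were 627 higher, 390 lower and 3 pathway calls (Htra1, Insl3 and Pik3r3), and Igfbp7 passed at 0.54 (adjusted p 0.0488). The replicate block on top of a GC offset gave 381, 479 and 2.

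Signs changed for 10 genes, none of which was called in any of these fits; H19, at -0.34 in the main fit, was the one farthest from 0. With library totals alone Socs2 was 0.037 and Htra3 0.059. With the GC offset Igfbp6 was -0.11, Socs2 0.019 and Nr4a1 -0.063, and with the replicate block added -0.071, 0.053 and -0.056; Socs2 was 0.017 with the block alone. Over the fits that left out 1 library, the log2 fold change ran from -0.20 to 0.59 for Igf1, -0.11 to 0.42 for Igfbp6, -0.14 to 0.19 for Igfbp5, -0.78 to 0.25 for H19, -0.33 to 0.17 for Mtor, -0.24 to 0.30 for Ctgf, -0.33 to 0.39 for Socs2, -0.22 to 0.26 for Pappa, -0.099 to 0.096 for Htra3 and -0.16 to 0.34 for Nr4a1. The cause of these changes was not tested. The low control counts of Igfbp3 limit the precision of its fold.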
